A study of Mus musculus with 16 samples.

Results

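The 8 genes described here encode the receptors and ligands of vascular endothelial growth factor (VEGF) signalling: the receptor tyrosine kinases Flt1 (VEGFR1), Kdr (VEGFR2) and Flt4 (VEGFR3), the co-receptors Nrp1 and Nrp2 (neuropilins) and the ligands Vegfa, Vegfb and Vegfc. They form a gene family taken by name, with earlier results of these data known, and all 8 were found among the 15895 genes of the deposited table and passed the filter on low values. RNA sequencing gave their expression in cardiac cells sorted as lymphatic endothelium, that is, without the leukocyte antigen CD45 and with the endothelial antigen CD31 and podoplanin. The CD1 mice were operated at postnatal day 1 (P1) or as adults (P56), either with a coronary ligation that causes myocardial infarction (MI) or as sham controls, and hearts were taken 3 days after surgery. No transgene or mutant allele is named for any group. Each of the 4 groups (sham or MI, at P1 or at P56) had 4 libraries. Sham animals had the operation without the infarction. The P1 libraries came from pups whose sex is not given, from ventricles combined 6 at a time, minced and digested under agitation. The P56 libraries came from males of 8 weeks whose left descending coronary artery was tied permanently and whose hearts were perfused with the enzyme, more briefly than the P1 tissue was digested. Age, surgery, pooling, sex and digestion therefore cannot be told apart. The labels do not say which libraries come from separate animals or pools, so every p-value measures the spread between these libraries, which may in part be technical.

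VEGF ligands are secreted dimers that bind receptor tyrosine kinases on endothelial cells. In mammals, VEGF-A acts mainly through Kdr to drive growth and permeability of blood vessels, while Flt1 binds VEGF-A and VEGF-B tightly with weak kinase activity and acts in part as a decoy. VEGF-C, once processed by proteases, acts through Flt4 to drive growth of lymphatic vessels, in the heart as elsewhere, and can also bind Kdr. Nrp1 is a co-receptor used mostly with Kdr and Nrp2 one used mostly with Flt4, and both also bind class 3 semaphorins. The neonatal mouse heart can regenerate muscle after an infarction for a short time after birth, whereas the adult heart scars.

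The members lie on several chromosomes, and the table's coordinates equalled those of the GENCODE M21 annotation (GRCm38) for all 8. Kdr and Flt1 lie on the minus strand of chromosome 5, at chr5:75932827-75978458 and chr5:147561604-147726011. Flt4 lies at chr11:49609263-49652739 on the plus strand, Nrp1 at chr8:128358604-128503363 and Vegfc at chr8:54077606-54187096 on the plus strand, and Nrp2 at chr1:62703285-62818695 on the plus strand. Vegfa (chr17:46016993-46032369) and Vegfb (chr19:6982473-6987651) lie on the minus strand. Each value covers a whole gene, so isoforms, such as the soluble form of Flt1, were not separated. The antisense gene Gm29083 and the same-strand gene Gm37121 lie within Nrp2 without sharing an exon with it. Their mean values were 1.43 and 12.1, and the use of strand in the counting is not given in the sources used here, so a small part of the Nrp2 reads may belong to them.

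RefSeq promoter windows (build GRCm38.p6, 300 bases around a transcript start) matched all 8 members, 9 windows in all, since Vegfa had 2. Of the 3 receptor kinases, Kdr and Flt1 each passed a test below and Flt4 passed none. The windows of all 3 are shown. They lie at chr5:75978406-75978705 (minus strand) for Kdr, chr5:147725962-147726261 (minus strand) for Flt1 and chr11:49609429-49609728 (plus strand) for Flt4. Each is printed 5′ to 3′ on the gene's own strand, with the letters GGGCGG or their reverse complement CCGCCC in capitals.
Kdr: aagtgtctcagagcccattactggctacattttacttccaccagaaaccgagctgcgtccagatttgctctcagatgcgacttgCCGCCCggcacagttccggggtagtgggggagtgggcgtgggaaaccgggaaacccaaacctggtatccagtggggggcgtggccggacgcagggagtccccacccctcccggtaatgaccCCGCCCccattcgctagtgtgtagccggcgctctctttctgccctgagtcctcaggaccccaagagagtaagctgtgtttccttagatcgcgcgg
Flt1: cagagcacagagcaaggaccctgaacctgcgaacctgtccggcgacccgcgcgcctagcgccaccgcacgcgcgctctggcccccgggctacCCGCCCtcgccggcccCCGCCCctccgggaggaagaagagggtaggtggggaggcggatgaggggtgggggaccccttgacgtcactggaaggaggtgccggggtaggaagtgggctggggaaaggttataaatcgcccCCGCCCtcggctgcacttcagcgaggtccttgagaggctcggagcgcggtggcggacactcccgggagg
Flt4: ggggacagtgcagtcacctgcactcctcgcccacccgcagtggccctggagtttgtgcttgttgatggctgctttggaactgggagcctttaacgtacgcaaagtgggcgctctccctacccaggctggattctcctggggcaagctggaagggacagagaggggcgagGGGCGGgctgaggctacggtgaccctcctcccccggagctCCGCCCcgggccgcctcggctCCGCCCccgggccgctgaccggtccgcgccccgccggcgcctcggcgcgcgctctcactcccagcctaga
The letters GGGCGG, read on either strand and known as the core that the factor SP1 binds, occurred 2 times in the window of Kdr, 3 times in that of Flt1 and 3 times in that of Flt4. They occurred in 9 of the 9 windows of the members, and in 35.7% of all 32851 windows of this length. The letters TATAAA occurred in 1 of the 9 windows, that of Flt1, and in 13.6% of all windows. The GC content was 60.7% for Kdr, 70.7% for Flt1 and 70.3% for Flt4, and ran from 59.3% to 75.3% over the 9 windows, against a median of 52.7% over all windows. These matches describe the letters of the windows and show no binding.

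The deposited values, called CPM by the authors, were read counts scaled by 1 constant per library, and they are given here as deposited. Depth ran from 17103319 to 43837520 reads per library over the genes listed. It was highest in sham P1 library 2 and MI P56 library 5, where most reads lay on 1 gene, Uqcrc1. In 13 libraries 14121 to 15821 genes had a read, and 3 reads, the limit that a count of 0 allows, were worth a value of 0.0489 to 0.109 (counting error only). The other 3, sham P1 libraries 1 and 2 and MI P56 library 5, had a read on 9451, 7939 and 7746 genes, with 3 reads worth 0.359, 12.1 and 12.9. They stood apart from their groups: the correlation of log2 values across genes between libraries of a group was 0.592 to 0.788 in the 8 pairs with one of them, and 0.851 to 0.965 in the 16 other pairs. In MI P56 library 5, 20 reads lay on Kdr and 8 on Flt1, while in sham P1 library 2, 24 and 11 did. The tests below were therefore fitted to the 13 libraries, which leave 2 sham and 4 MI libraries at P1 and 4 sham and 3 MI libraries at P56, and values with all 16 are given beside the main results. In the fit with 16 libraries the median log2 change of all genes was itself shifted, to -0.17 for MI at P56, 0.39 for MI at P1, -0.50 for the difference between these, 0.36 for age in sham and -0.18 for age after MI. With 13 libraries these medians lay between -0.01 and 0.02. Of the libraries fitted, sham P1 library 5 had 47.3% of its reads on Uqcrc1, against at most 4.11% in the rest. It also had the fewest reads outside Uqcrc1 and mitochondrial rRNA, 6709566. Libraries are named by the number of their table column, which runs 1, 2, 3 and 5, whereas sample labels run 1 to 4 within a group, and the group of a library 5 rests on its column name. The libraries were sequenced in 2 pools, and the labels do not say which library was in which.

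The sorted cells carried the lymphatic markers, together with RNA of other cells. Of 8 lymphatic markers (Prox1, Lyve1, Pdpn, Reln, Mmrn1, Sox18, Tbx1 and Ccl21a), 7 were in the table, none was at 0 throughout a group, and their summed value was 712 to 2528 in the 13 libraries. A list of 12 genes of blood endothelium, among them Vwf, Emcn, Plvap and Gpihbp1, summed to 166 to 190 (sham) and 164 to 297 (MI) at P1, and to 502 to 841 (sham) and 232 to 458 (MI) at P56. All 12 were in the table and none was at 0 throughout a group. Fibroblast genes summed to 866 to 8045 over the libraries, cardiomyocyte genes to 102 to 2324, and macrophage and monocyte genes to 49.0 to 139. In bulk RNA, fewer cells of a type and less RNA per cell cannot be told apart.

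Per kilobase of exon, the lymphatic receptor Flt4 had the highest mean level of the 8 genes in every group of the 13 libraries, followed by Nrp2, Kdr and Vegfa. Flt4 stood at 43.3 ± 13.6 per kb in sham and 46.8 ± 5.03 in MI hearts at P1 (SD, n = 2 and 4), and at 65.8 ± 26.7 in sham and 50.7 ± 17.9 in MI hearts at P56 (n = 4 and 3). Nrp2 stood at 25.7 ± 8.27, 25.2 ± 3.58, 27.2 ± 4.11 and 18.8 ± 3.74 per kb in the same order. The libraries of Flt4 lay above those of Nrp2 without overlap in sham P1, MI P1 and MI P56, and in sham P56 the ranges overlapped, although Flt4 exceeded Nrp2 within all 4 libraries. Kdr came next at 8.86 ± 1.42, 10.4 ± 2.32, 15.1 ± 1.91 and 6.47 ± 1.61 per kb, below every library of Nrp2 in each group.

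The other 5 members lay lower and close together. Vegfa had the highest mean of the ligands in each group of the 13 libraries, at 3.81 to 6.80 per kb. Within MI P1 it lay below Vegfb in libraries 2 and 3 and below Vegfc in library 3. The mean of 6.80 in sham P56 rests on library 2, without which it was 3.603 per kb, below Flt1 (5.67) and Nrp1 (4.88). In sham P1 the order ended with Vegfa, Vegfc, Vegfb, Nrp1 and Flt1, the last at 0.676 ± 0.447 per kb (n = 2). In MI P1 the ranks from Vegfa down to Vegfc each overlapped the next. In sham P56 Flt1 ranked above Nrp1, Vegfc and Vegfb, at 5.53 ± 2.07 per kb (n = 4), and every rank from Kdr down overlapped the next. In MI P56 the order below Kdr was Vegfa, Nrp1, Vegfc, Flt1 and Vegfb, and only Vegfa and Nrp1 were neighbours without overlap. These orders are of levels and carry no test. With its libraries 1 and 2 the order in sham P1 turned, with Nrp2 at 89.2 ± 82.3 per kb above Flt4 at 82.5 ± 78.5 (SD, n = 4). Vegfb, at 12.2 per kb, then lay above Kdr (10.7), and both Vegfb and Vegfc (9.26) above Vegfa (3.87).

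**Figure D1:**
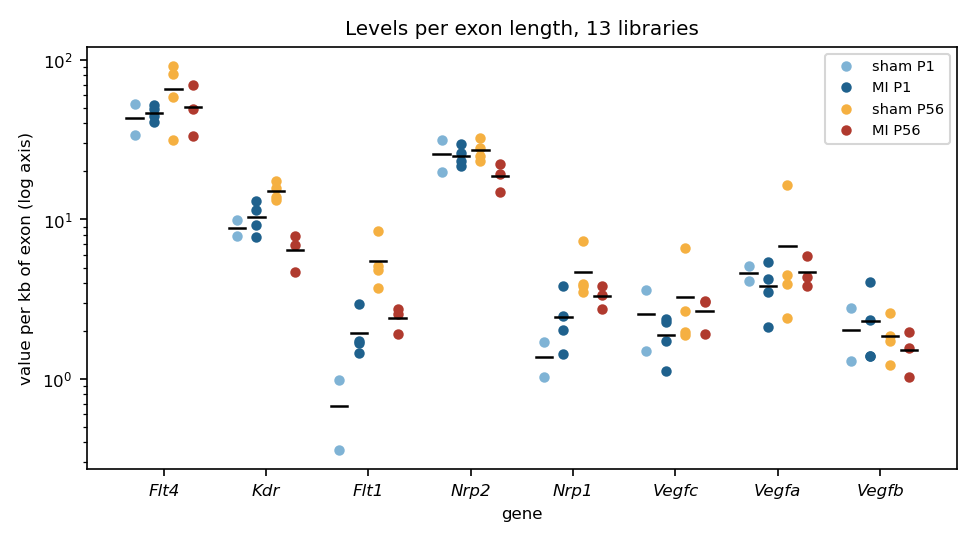
Deposited values per kilobase of exon (log axis) of the 8 genes in each of the 13 libraries, 1 point per library coloured by group, with bars at group means. Flt4 is highest in every group by its mean, at 43.3 to 65.8 per kb, and Flt1 in sham P1 is the lowest, at 0.676 per kb.

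Infarction in the adult heart was followed by lower Kdr, the only member of the 8 that passed the test at P56. Kdr, the main signalling receptor for VEGF-A, was at 120, 158, 126 and 142 in sham P56 libraries 1, 2, 3 and 5 and at 62.1, 70.7 and 42.4 in MI P56 libraries 1, 2 and 3. The groups did not overlap, and MI P56 library 5, outside the fit, was at 86.3, also below every sham library. The mean fell from 136 ± 17.3 (SD, n = 4) to 58.4 ± 14.5 (n = 3), a log2 change of -1.23 ± 0.23 (SE; 2.35-fold lower on the log2(value + 1) scale; limma adjusted p = 0.0036). Over all genes, 3.42% were called in this comparison, 2.36% higher and 1.07% lower. With all 16 libraries the change was -1.09 ± 0.34 (limma adjusted p = 0.329), and 0.174% of genes were called. Without any 1 of the 13 libraries Kdr stayed called, with changes from -1.38 to -1.02 and adjusted p from 0.00309 to 0.0449.

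Flt1, the receptor with weak kinase activity, lay lower after adult infarction without passing the test. Its values were 50.0, 68.8, 65.0 and 115 in sham P56 libraries 1, 2, 3 and 5 and 25.9, 37.3 and 34.6 in MI P56 libraries 1, 2 and 3. The groups did not overlap, and MI P56 library 5 was at 34.5 on 8 reads. The means were 74.7 ± 28.0 (SD, n = 4) and 32.6 ± 5.94 (n = 3), with a log2 change of -1.12 ± 0.32 (SE; limma adjusted p = 0.0595) in the 13 libraries and -1.10 ± 0.63 (limma adjusted p = 0.732) in all 16. The adjusted p was under 0.05 in 3 of the 13 fits that leave out 1 library, at 0.0398 to 0.0412.

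The lymphatic receptor Flt4 did not pass the test after adult infarction, and its libraries overlapped. They were at 752, 259, 673 and 481 in sham P56 and at 571, 403 and 277 in MI P56, with 311 in library 5. The lowest library of both groups was a sham library, number 2. The log2 change was -0.33 ± 0.32 (SE; 95% interval -0.99 to 0.34; limma adjusted p = 0.650), and -0.42 ± 0.47 with 16 libraries. The log2 ratio of Kdr to Flt4 within a library averaged -1.88 ± 0.87 in the 4 sham P56 libraries and -2.78 ± 0.35 in the 3 MI P56 libraries (SD), a difference of -0.91. The libraries overlapped (exact permutation test, two-sided, p = 0.171, 0.771 after adjustment over 9 ratio comparisons; 0.0286 is the smallest p that 35 splits allow). With 35 splits no outcome of this test could have passed after adjustment over the 9 comparisons. It therefore cannot decide whether the 2 receptors responded differently to adult infarction.

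**Figure D2:**
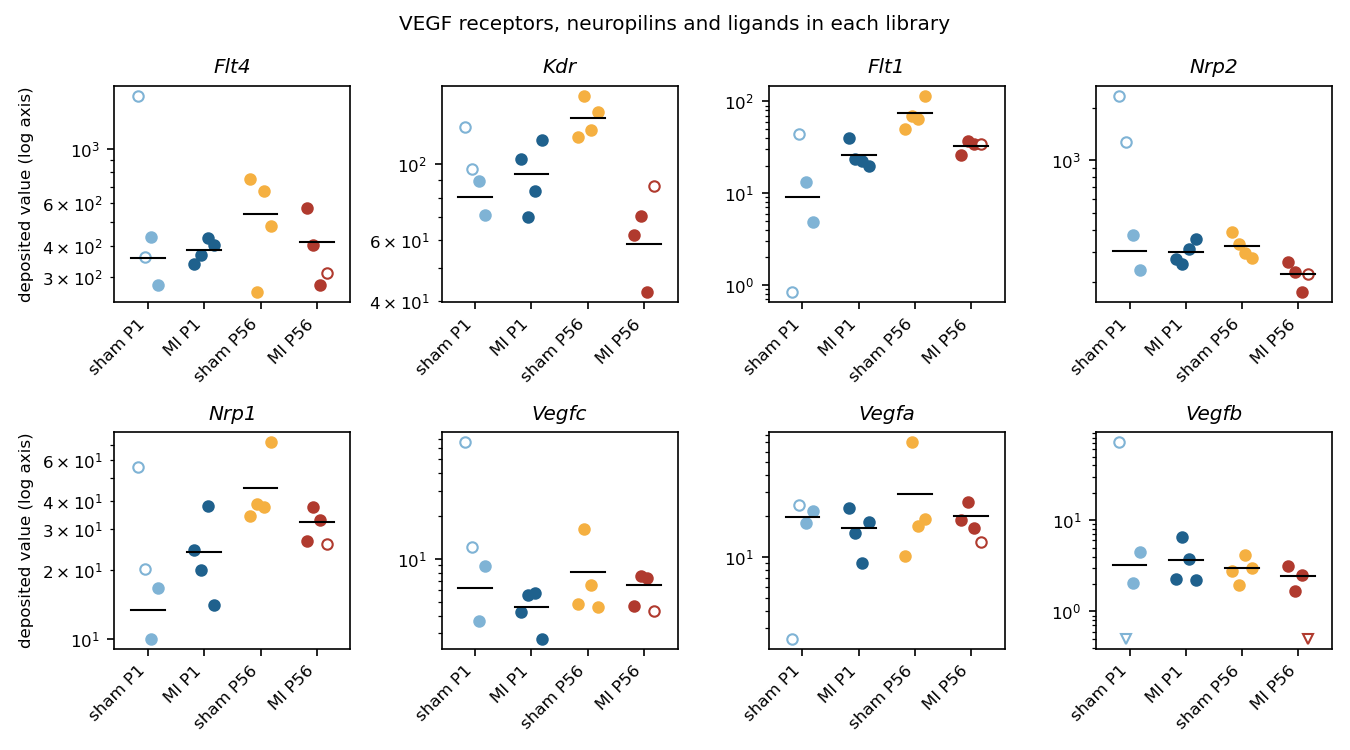
Deposited values (log axes) of each member by group, 1 point per library, with filled points for the 13 libraries of the fit, open points for the 3 left out, triangles for values of 0 and bars at the means of the filled points. Kdr lies at 42.4 to 70.7 in the filled points of MI P56 and at 120 to 158 in sham P56, while Flt1 in sham P1 lies at 4.85 and 13.4.

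Nrp2, the neuropilin paired with Flt4, was at 386, 331, 294 and 276 in sham P56 libraries 1, 2, 3 and 5 and at 263, 230 and 175 in MI P56 libraries 1, 2 and 3. The groups did not overlap, and MI P56 library 5 was at 224. Nrp2 thus gave -0.54 ± 0.22 on the log2 scale (SE; limma adjusted p = 0.206), and -0.53 ± 0.50 in all 16 libraries (limma adjusted p = 0.861). Nrp1, the neuropilin paired with Kdr, overlapped, at 34.2, 38.8, 37.6 and 71.6 in sham P56 and at 26.8, 37.3 and 33.1 in MI P56, with 25.9 in library 5. For Nrp1 the fitted change was -0.43 ± 0.31 (SE; limma adjusted p = 0.514) in 13 libraries and -0.50 ± 0.47 in 16. In all, 3 of the 8 members (Flt1, Kdr and Nrp2) were lower in every MI P56 library than in every sham P56 library, with 13 and with 16 libraries. Over all genes 5.79% were lower without overlap in the 13 libraries and 4.85% in the 16, and in the 13 libraries 13.8% did not overlap in either direction.

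None of the 3 ligands passed the test after adult infarction. Vegfa, which encodes the ligand of Kdr and Flt1, was at 10.3, 70.2, 16.9 and 19.1 in sham P56 and at 18.7, 25.3 and 16.5 in MI P56, with 12.9 in library 5. Vegfc, which encodes the ligand of Flt4, was at 4.84, 16.1, 6.55 and 4.59 in sham P56 and at 4.66, 7.52 and 7.39 in MI P56, with 4.31 in library 5. Both groups overlapped for both genes, and sham P56 library 2 was the highest for each. Vegfb, which encodes a ligand of Flt1, was at 1.97 to 4.16 in sham P56 and at 1.66 to 3.15 in MI P56, and had no read in library 5, where 3 reads were worth 12.9. The log2 changes were -0.16 ± 0.44 for Vegfa, -0.12 ± 0.40 for Vegfc and -0.20 ± 0.37 for Vegfb (SE; limma adjusted p = 0.895, 0.910 and 0.834). Their 95% intervals ran from -1.07 to 0.76, from -0.96 to 0.71 and from -0.98 to 0.58. With 16 libraries the changes were -0.30 ± 0.60, -0.24 ± 0.63 and -0.64 ± 0.86.

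Markers of blood endothelium lay lower as a sum in this comparison, as Kdr and Flt1 did. Their summed value was 502, 838, 505 and 841 in sham P56 libraries 1, 2, 3 and 5 and 299, 458 and 232 in MI P56 libraries 1, 2 and 3, which did not overlap. Of the 12 genes 0 rose and 3 fell, with a median log2 change of -0.69, and 2 had positive changes. Of 8 pan-endothelial genes 0 rose and 3 fell, with a median of -0.65, and of the 7 lymphatic markers tested none was called, with a median of -0.46. The median over all genes was 0.01, and 2.36% of all genes rose and 1.07% fell. With all 16 libraries 0 of the 12 blood endothelial and 0 of the 8 pan-endothelial genes were called. Markers of pericytes and smooth muscle, the mural cells of blood vessels, summed to 453 to 1171 in sham P56 and 217 to 352 in MI P56, also without overlap, and to 2101 in MI P56 library 5. Of the 8 tested, 1 rose, Acta2 by 2.40 on the log2 scale, and 2 fell, Rgs5 by -1.57 and Abcc9 by -1.79. The median log2 change of the 8 was -0.33, 4 were positive, and 0 were called with 16 libraries. None of the 8 was at 0 throughout a group. Cardiomyocyte genes summed to 1284 to 2324 in sham P56 and 322 to 570 in MI P56. Of the 10, 9 fell and 0 rose, with a median of -1.81. Fibroblast genes summed to 866 to 4065 in sham P56 and 3745 to 8045 in MI P56. Of the 10, 4 rose and 0 fell, with a median of 0.70. With 16 libraries 1 of the cardiomyocyte and 3 of the fibroblast genes were called. Of the 7 macrophage and monocyte genes tested, 2 rose (Cd68 and Itgam) and 1 fell (Mrc1), with a median of 1.01. With 16 libraries 1 of these 7 was called. The part of these other cells in the result for Kdr was not tested.

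In the neonatal heart no member, and no gene of the 13033 tested, was called for MI against sham (0% called; limma adjusted p under 0.05), while 485 genes had an unadjusted p under 0.05. The quasi-likelihood test of edgeR on the recovered reads called 0 genes and DESeq2 7 (0.0537%). Flt1 ranked number 8 by p among all genes. It was at 13.4 and 4.85 in sham P1 libraries 3 and 5 and at 39.6, 23.3, 22.7 and 19.8 in MI P1 libraries 1, 2, 3 and 5. Every MI library lay above both sham libraries, as for 8.89% of all genes. Fitted, the difference was 1.52 ± 0.36 on the log2 scale (SE; limma adjusted p = 0.664). The sham P1 libraries outside the fit were at 0.837 (7 reads) and 44.4 (11 reads), on both sides of the MI P1 range, and with them the change was 1.53 ± 0.63 (limma adjusted p = 0.416) and the groups overlapped.

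The other members overlapped between sham and MI at P1. Kdr was at 89.1 and 70.9 in sham P1 and at 104, 70.4, 83.3 and 118 in MI P1, with 128 and 96.9 in the sham libraries left out. Flt4 was at 436 and 277 in sham P1 and at 338, 367, 431 and 405 in MI P1, with 1643 and 359 in those left out. Nrp2 was at 373 and 235 in sham P1 and at 274, 256, 310 and 352 in MI P1, with 2344 and 1272 in those left out. The 3 genes thus gave log2 changes close to 0 in the 13 libraries, 0.21 ± 0.26 for Kdr, 0.14 ± 0.36 for Flt4 and -0.0019 ± 0.25 for Nrp2. With the 2 further sham libraries the changes were -0.034 ± 0.34, -0.43 ± 0.47 and -1.27 ± 0.50, none called. For Nrp1, at 10.1 and 16.8 in sham P1 and at 24.3, 20.0, 37.7 and 14.1 in MI P1, the change was 0.75 ± 0.35 (limma adjusted p = 1.00). The left-out sham libraries were at 55.9 and 20.2, and with them it was 0.10 ± 0.47.

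The ligands overlapped as well. Vegfa was at 17.7 and 21.9 in sham P1 and at 23.1, 15.1, 9.05 and 18.1 in MI P1, and Vegfc at 3.67 and 8.91 and at 4.25, 5.58, 5.81 and 2.75. Vegfb was at 2.07 and 4.46 in sham P1 and at 2.25, 6.54, 3.74 and 2.24 in MI P1. The log2 changes were -0.33 ± 0.50 for Vegfa, -0.32 ± 0.45 for Vegfc and 0.11 ± 0.42 for Vegfb, none called. The left-out sham P1 libraries 1 and 2 held 2.51 and 24.2 of Vegfa and 66.0 and 12.1 of Vegfc. Their values of Vegfb were 71.7 and 0, the latter in a library where 3 reads were worth 12.1. With them the changes were 0.24 ± 0.60 for Vegfa, -1.38 ± 0.63 for Vegfc and -0.42 ± 0.86 for Vegfb, none called.

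The response of Flt1 to infarction differed between the ages. The log2 change in the adult was lower than that in the neonate by 2.64 ± 0.48 (SE; the difference is -2.64; limma adjusted p = 0.0240, rank 16 of 13033 genes), since the 2 changes had opposite signs. Of all genes 0.483% were called for this difference, 0.161% in the negative direction. Flt1 was the only member of the 8 called. With all 16 libraries the difference was -2.62 ± 0.89 (limma adjusted p = 0.509), and 0.00755% of genes were called. With the replicate block, a term for the library number, the difference was -2.69 and not called (limma adjusted p = 0.0559). The call was also lost in 5 of the 13 fits that leave out 1 library. Without sham P1 library 5, which had the lowest Flt1 of the 13 (134 reads), the difference was -1.995, with 1 sham P1 library left. That library 5 also had 47.3% of its reads on Uqcrc1. Without MI P1 library 1 or 3 or MI P56 library 1 or 3 the adjusted p lay between 0.0557 and 0.0690.

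For Kdr the difference between the ages came to -1.44 ± 0.34 in 13 libraries (SE; limma adjusted p = 0.0639) and to -1.05 ± 0.49 in 16 (limma adjusted p = 0.513). For Nrp1 it was -1.18 ± 0.47 (limma adjusted p = 0.337), and -0.60 ± 0.66 with 16 libraries. Flt4 and Nrp2 gave -0.47 ± 0.48 and -0.54 ± 0.33, and 0.013 ± 0.66 and 0.74 ± 0.70 with 16 libraries. The 3 ligands lay between -0.31 and 0.20, each with an SE of 0.56 to 0.66. The 5 receptors and neuropilins were thus all negative and only Flt1 was called. The blood endothelial markers had a median of -1.19 for this difference, with 0 of 12 called, and the median over all genes was -0.01. Of the 8 pericyte and smooth muscle markers 1 was called, Abcc9 (-2.54), while 4 were positive and the median was -0.13. Cardiomyocyte genes had a median of -2.16, with 3 of 10 called lower. Fibroblast genes had a median of 1.83, with 1 of 10 called higher. With 16 libraries 0 of the cardiomyocyte and 1 of the fibroblast genes were called. The part of these cells in the difference of Flt1 was not tested.

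**Figure D3:**
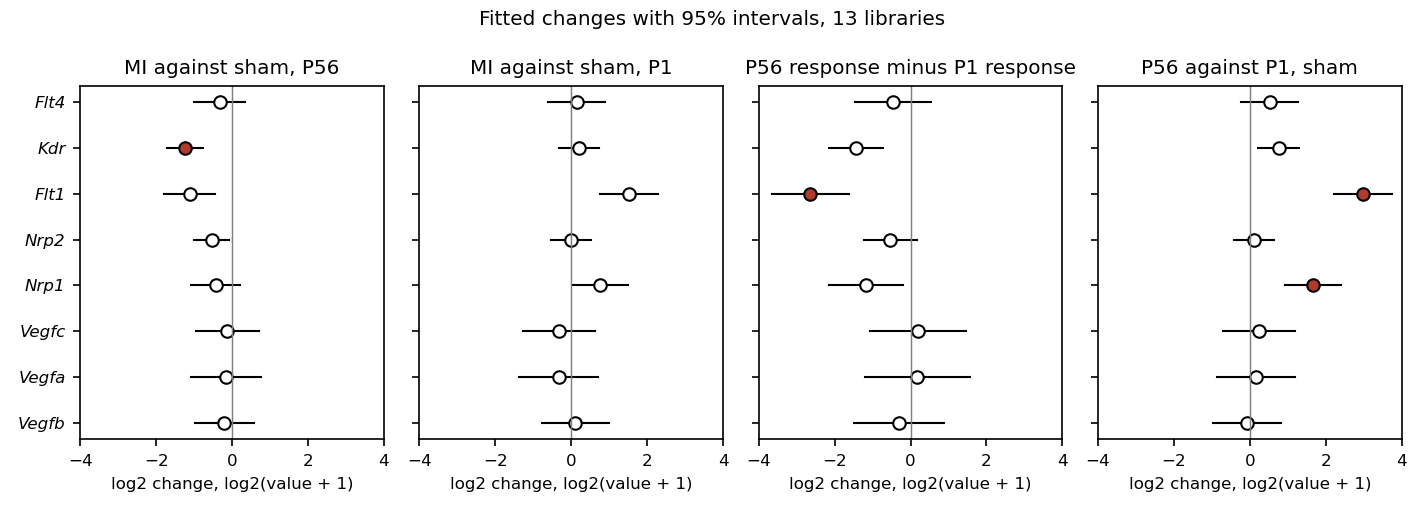
Fitted log2 changes of the 8 members on the log2(value + 1) scale with 95% intervals, 13 libraries, in 4 comparisons. Filled points have a limma adjusted p under 0.05 over all genes, which are Kdr for MI at P56, Flt1 for the difference between the ages, and Flt1 and Nrp1 for P56 against P1 in sham.

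Between the sham hearts of the 2 ages, Flt1 and Nrp1 were higher in the adult. Flt1 rose from 13.4 and 4.85 in sham P1 libraries 3 and 5 to 50.0, 68.8, 65.0 and 115 in sham P56 libraries 1, 2, 3 and 5. The log2 change was 2.98 ± 0.36 (SE; 7.87-fold on the log2(value + 1) scale; limma adjusted p = 2.7e-05), against 13.2% of genes called, 5.89% higher. With 16 libraries it was 2.98 ± 0.63 (limma adjusted p = 0.0101), with 3.91% of genes called, and every adult library still lay above every neonatal one. Flt1 stayed called without any 1 of the 13 libraries, with changes from 2.33 to 3.63. Flt1 was called here with array weights, each filter, pseudocount and scaling tried, edgeR, DESeq2, only the groups compared and the replicate block as well.

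Nrp1 rose from 10.1 and 16.8 in sham P1 to 34.2, 38.8, 37.6 and 71.6 in sham P56. The groups did not overlap, and the log2 change was 1.67 ± 0.35 (SE; 3.17-fold on the same scale; limma adjusted p = 0.00304). Sham P1 library 1, left out of the fit, was at 55.9 on 468 reads, above 3 of the adult libraries. With 16 libraries the change was 1.01 ± 0.47 (limma adjusted p = 0.198), and without sham P1 library 3 it was 1.32 (limma adjusted p = 0.0902). The log2 ratio of Nrp1 to Nrp2 averaged -4.41 ± 0.96 (SD, n = 2) in sham P1 and -2.85 ± 0.65 (n = 4) in sham P56, without overlap. The difference of 1.56 had an exact permutation p of 0.0667 (two-sided, adjusted p = 0.6), the smallest that 15 splits allow, so this comparison could not pass 0.05. The left-out sham P1 libraries had ratios of -5.36 and -5.91, so that with 16 libraries the groups still did not overlap and the difference was 2.17 (exact permutation p = 0.0286, the smallest that 70 splits allow; adjusted p = 0.257).

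Kdr was also higher in every adult sham library of the fit, at 120 to 158 against 70.9 and 89.1, but was not called (log2 change 0.76 ± 0.26; limma adjusted p = 0.0550; 0.52 ± 0.34 with 16 libraries). Without overlap, 3 of the 8 members were higher in sham P56 (Flt1, Kdr and Nrp1), and 16.3% of all genes were. With 16 libraries 1 member, Flt1, was higher without overlap, and 8.27% of all genes were. For Flt4 the change was 0.53 ± 0.36 (limma adjusted p = 0.377). Sham P56 library 2, at 259, lay below both neonatal libraries, and without it the change was 0.84 (limma adjusted p = 0.0519). It was -0.045 ± 0.47 with 16 libraries. Nrp2 gave 0.11 ± 0.25, and -1.16 ± 0.50 with the sham P1 libraries of 2344 and 1272. The ligands gave 0.16 ± 0.50 for Vegfa, 0.25 ± 0.45 for Vegfc and -0.071 ± 0.42 for Vegfb, none called. With 16 libraries they gave 0.73 ± 0.60, -0.82 ± 0.63 and -0.60 ± 0.86, none called.

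The blood endothelial markers were higher in the adult sham hearts too, at 502 to 841 against 166 and 190 in the sham P1 libraries of the fit, and 7 of 12 rose and 0 fell, with a median log2 change of 1.69 against 0.0016 over all genes. The sham P1 libraries left out summed to 540 and 448. Of the 7 lymphatic markers tested 1 rose and 0 fell, with a median of -0.09. With 16 libraries 4 of the 12 rose. Pericyte and smooth muscle markers summed to 111 and 235 in the sham P1 libraries of the fit and to 453 to 1171 in sham P56, and 3 of 8 rose, but the left-out sham P1 libraries summed to 461 and 2593 and with them 1 of 8 rose. All 10 cardiomyocyte markers rose, and 7 with 16 libraries. Their part in the results for Flt1 and Nrp1 was not tested. Across the 13 libraries the log2 level of Flt1 had a Pearson r of 0.85 with the log2 sum of the blood endothelial markers, Nrp1 0.84, Kdr 0.58, Flt4 0.23 and Nrp2 0.10. With the sum of the lymphatic markers Nrp2 had an r of 0.90, Kdr 0.55, Flt4 0.39, Flt1 -0.23 and Nrp1 -0.39. These values describe 13 libraries that share 4 groups and 1 set of scaling constants.

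**Figure D4:**
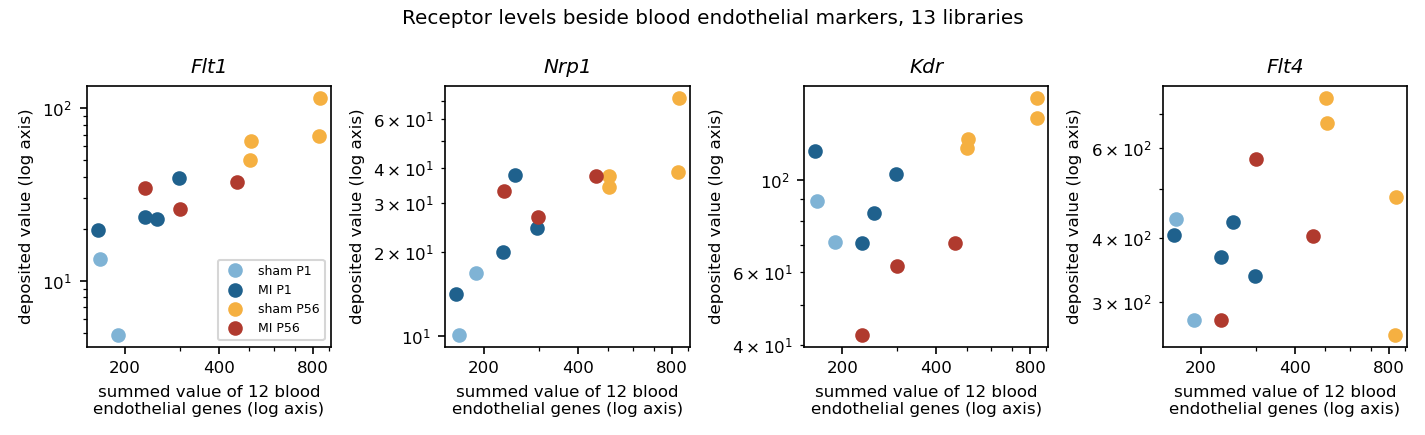
Deposited values of Flt1, Nrp1, Kdr and Flt4 against the summed value of 12 blood endothelial genes (log axes), 1 point per library of the 13, coloured by group. Flt1 and Nrp1 lie higher where the marker sum is higher (r = 0.85 and 0.84), while Flt4 has an r of 0.23.

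After infarction no member was called between the ages, whereas 5.35% of all genes were (0.106% with 16 libraries). Each of the 8 members overlapped, with 13 and with 16 libraries, while 20.6% of all genes did not overlap in the 13 and 11% in the 16. Kdr was at 70.4 to 118 in MI P1 and 42.4 to 70.7 in MI P56, overlapping by 1 library on each side, with a log2 change of -0.68 ± 0.23 (SE; limma adjusted p = 0.0911; -0.53 ± 0.34 with 16 libraries). Flt1 gave 0.33 ± 0.32 and Nrp1 0.49 ± 0.31, and 0.36 ± 0.63 and 0.41 ± 0.47 with 16 libraries. Nrp2 gave -0.43 ± 0.22 and Flt4 0.058 ± 0.32, and -0.42 ± 0.50 and -0.032 ± 0.47 with 16 libraries. Comparisons of the ages and of MI with sham share libraries, so their values for a member are not independent.

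The members did not follow 1 common pattern over the 13 libraries. Of the 28 pairs, Flt1 with Nrp1 had the highest Pearson r of log2 values, 0.80, then Kdr with Nrp2, 0.74, and Vegfa with Vegfc, 0.63, and Flt4 with Vegfa had the lowest, -0.56. The r of Vegfa with Vegfc rests on sham P56 library 2, the highest for both genes in its group, and without it was 0.095. Among 6090 genes with a mean of at least 5, those most like Flt1 were Mcf2l (r = 0.957), Plcb1 (0.957) and Slc28a2 (0.954). Those most like Kdr were Sdpr (0.916), Pcdh12 (0.897) and Pan2 (0.891). For Flt4 they were Ptpn14 (0.919), Ston2 (0.900) and Ptch1 (0.898). For Nrp1 they were Irgm2 (0.932), Adgrg1 (0.918) and Ifngr1 (0.914), and for Nrp2 they included the lymphatic marker Reln (0.940) and Gpm6a (0.907). For Vegfa they were Rnf139 (0.921), Vps53 (0.895) and Pgrmc2 (0.885), and for Vegfc Adgrg2 (0.921), Abca9 (0.903) and Ebf2 (0.894). Vegfb, searched among 6091 genes since its own mean is under 5, was most like Wipf2 (0.844), Idh2 (0.823) and Ppp6r1 (0.744). All of these are descriptions over 13 libraries without a test.

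A wider list of 108 genes of VEGF signalling was read beside the members: other ligands and their processing, semaphorins and plexins, receptor partners, signal transduction, VEGF-responsive genes and transcription factors of the pathway. Of these, 106 were in the table and 104 were tested. After adult infarction 4 rose and 3 fell, with a median log2 change of -0.15, where 2.36% and 1.07% of all genes did. With 16 libraries none of the 7 was called. Vegfd, which encodes the other lymphatic ligand of Flt4, rose from 3.94, 2.95, 2.89 and 1.75 in sham P56 libraries 1, 2, 3 and 5 to 8.35, 9.72 and 9.89 in MI P56 libraries 1, 2 and 3. The groups did not overlap, and 1 read in library 5 gave 4.31. Its fitted rise was 1.44 ± 0.29 on the log2 scale (SE; limma adjusted p = 0.00833), and without MI P56 library 3 the adjusted p was 0.0650. With 16 libraries it was 1.20 ± 0.81 (limma adjusted p = 0.787). In the same comparison 4 of the 10 fibroblast genes rose, as given above. The part of other cells in the rise of Vegfd, or of Itga5 below, was not tested. In P1 hearts Vegfd was at 4.60 and 5.04 in sham and at 4.64 to 6.74 after MI. The sham P1 libraries left out were at 76.9 (643 reads) and 0, above and below every MI P1 library, the latter where 3 reads were worth 12.1.

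Of the other genes called in the adult heart, Itga5, an integrin subunit, rose from 24.7 ± 4.05 (SD, n = 4) to 67.1 ± 8.81 (n = 3), a log2 change of 1.41 ± 0.26 (SE; limma adjusted p = 0.00372). Itga5 was the only 1 of the 7 to stay called without any 1 of the 13 libraries, and with 16 its change was 0.94 ± 0.53 (limma adjusted p = 0.728). The immediate early receptors Nr4a2 and Nr4a1 rose by 1.87 and 1.61 on the log2 scale. The call of Nr4a2 was lost without MI P56 library 3 (limma adjusted p = 0.0761), and that of Nr4a1 in 11 of the 13 fits that leave out 1 library (adjusted p 0.0525 to 0.252). Gata2, a transcription factor of endothelium, changed by -1.38, Plcg1, the phospholipase that Kdr activates, by -0.77, and Cdh5, the adherens junction cadherin, by -0.73. Their calls were lost in 11, 10 and 10 of those fits, with adjusted p up to 0.153, 0.133 and 0.222. All 3 fell together with the pan-endothelial and blood endothelial markers given above, and Cdh5 is itself in the pan-endothelial list.

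Of the genes around the ligands, Adamts3, the protease that processes VEGF-C, was at 0.224 to 1.29 in sham P56 and 1.79 to 4.60 in MI P56, without overlap, and was not called (log2 change 1.18 ± 0.33; limma adjusted p = 0.0527). Ccbe1, the cofactor of that protease, was at 4.01 to 10.3 and at 0.294, 3.19 and 9.35, with a change of -1.07 ± 0.49 (limma adjusted p = 0.266). Pgf, placental growth factor, a ligand of Flt1, was at 5.24 to 11.5 and at 1.78 to 4.74, without overlap, and was not called (-1.01 ± 0.38; limma adjusted p = 0.157). With 16 libraries the changes were 0.72 ± 0.43 for Adamts3, -0.95 ± 0.90 for Ccbe1 and -1.52 ± 0.63 for Pgf, none called. At P1 none of the 104 was called for MI against sham, and none for the difference between the ages. Their medians were 0.10 and -0.27, against 0.02 and -0.01 over all genes.

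Between the ages in sham, 10 of the 104 rose and 15 fell, against 5.89% higher and 7.28% lower over all genes, with a median log2 change of -0.02. The genes that rose most were Sox17 (1.93), Epas1 (1.74), Sox18 (1.40), Ptprb (1.20), Epn2 (1.15) and Itga9 (1.04). Sox17 and Sox18 are endothelial transcription factors, Epas1 a hypoxia-inducible factor and Ptprb the phosphatase VE-PTP. Sox17 is also in the blood endothelial list of markers and Sox18 in the lymphatic one. Those that fell most were Nr4a2 (-4.56), Egr1 (-2.95), Nr4a1 (-2.91), Dusp5 (-2.65), Adamts14 (-1.90) and Sema3c (-1.64). Of these, Nr4a2, Egr1, Nr4a1 and Dusp5 are early-response genes of growth factor signalling, and the digestion of P1 hearts was longer, which cannot be told apart from age. Without sham P1 library 5 the calls of Sox17, Sox18, Ptprb, Epn2, Itga9, Adamts14 and Sema3c were lost, with adjusted p of 0.0603 to 0.274 over the fits that lost them, those without sham P1 library 3 included. Epas1, Nr4a2, Egr1, Nr4a1 and Dusp5 stayed called without any 1 library. With 16 libraries 5 of the 12 were called.

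After MI, 1 of the 104 was higher at P56 and 14 were lower, with a median of -0.28, against 2.09% and 3.26% of all genes. Prkca, protein kinase C alpha, rose by 1.37 on the log2 scale, a call lost in 8 of the fits that leave out 1 library. The genes that fell most were Nr4a2 (-2.79), Egr1 (-2.19), Dusp5 (-2.03), Dusp6 (-1.96), Hey1 (-1.83) and Klf4 (-1.81). The call of Hey1, a Notch target, was lost in 5 of those fits (adjusted p 0.0628 to 0.138), and the other 5 genes that fell stayed called in all of them. With 16 libraries none of the 7 was called. Of the 13 VEGF-responsive genes tested, 5 fell between the ages in sham and 6 after MI, and 0 rose in either. Over all genes 7.28% and 3.26% fell. With 16 libraries 4 of the 13 fell in sham and 0 after MI. The longer digestion of P1 hearts cannot be told apart from age here either.

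**Figure D5:**
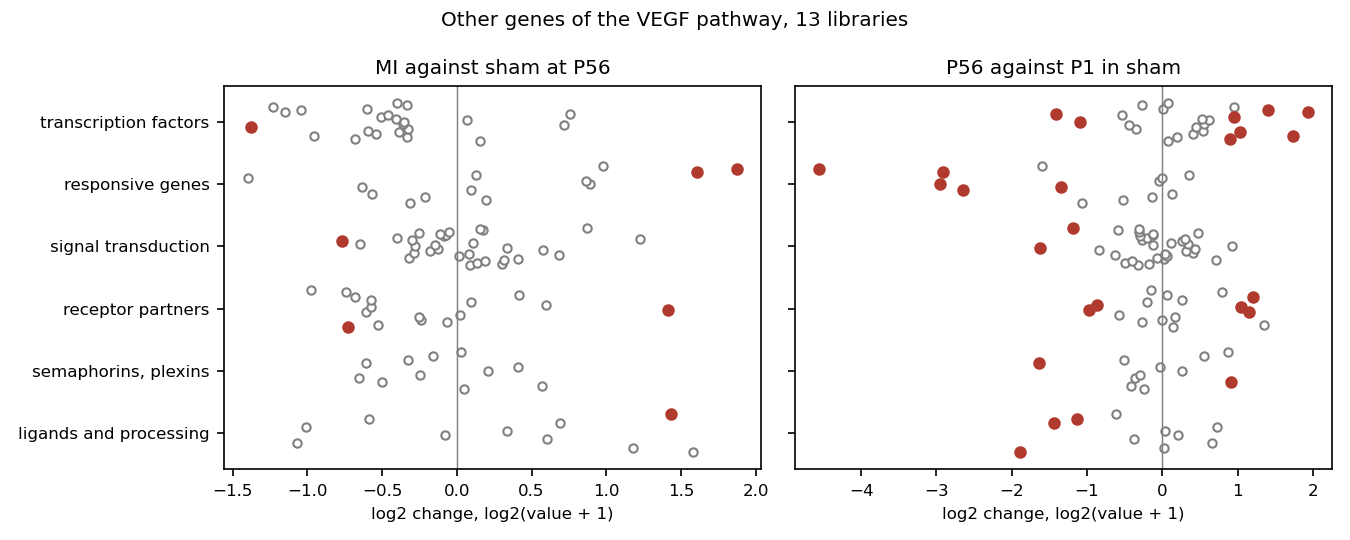
Log2 changes of the 104 tested genes of the wider VEGF list by class (log2(value + 1) scale, 13 libraries), for MI against sham at P56 and for P56 against P1 in sham, with filled points where the limma adjusted p over all genes is under 0.05. After adult infarction 4 rose and 3 fell, and between the ages in sham 10 rose and 15 fell.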

How the data were processed

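Libraries were made with a whole-transcriptome amplification kit and read as single reads of 80 bases, per the labels' protocols. The submitters' processing notes name the tools HTSeq, STAR, edgeR and Trimmomatic and the build mm10 (GRCm38), with versions not given in the sources used here. The unit of the deposited values is signal, scaled reads that the authors called CPM: dividing by 1 constant per library gave whole reads for 100% of values (within 0.01 read), and these reads were recovered for depth and count tests. The design had assumed plain CPM. Table columns belong to the 16 libraries, and 0 belong to other samples.

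Libraries with a read on at least 10000 genes (13 of 16) were kept. Genes that reached a value of 1 in 4 or more of them (13033 of 15895) were fitted as log2(value + 1) with limma-trend (limma 3.58.1, R 4.3.3), all 4 groups in 1 fit, and called two-sided at an adjusted p under 0.05 (Benjamini-Hochberg, all genes of the fit). A change on this scale understates that of low genes. Log2 ratios used exact permutation tests, adjusted over 9 comparisons. With the 13 libraries none of these could pass 0.05 after adjustment. Alternatives were all 16 libraries without and with array weights, other filters, pseudocounts of 0.25 and 4, other scalings, edgeR 4.0.16 and DESeq2 1.42.0 on recovered reads, only the groups compared, a replicate block and each library left out. Levels between genes were divided by exon length (GENCODE M21). The fit was tested on simulated data. The members, lists, filter on libraries and tests were chosen with earlier results of these data known. Named genes are the 8 members, called members of the wider list (up to 6 per direction, largest change first), Pgf, Vegfd, Ccbe1 and Adamts3 and the 3 genes most correlated with each member, of which 1 is not reported here.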

Additional observations from a re-analysis of the deposited data

Results flagged for a closer look

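In 32 groups of 4 libraries (8 members in 4 groups), 6 held a highest library that stood apart from the other 3 by more than Dixon's 95% limit, which chance passes in about 1 of 20 groups. In sham P1 library 1, which was left out of the fit, Flt4 was at 1643 (next library 436), Vegfb at 71.7 (4.46) and Vegfc at 66.0 (12.1). In sham P56 library 2, Vegfa was at 70.2 (next library 19.1) and Vegfc at 16.1 (6.55). In sham P56 library 5, Nrp1 was at 71.6 (next library 38.8).

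The response of Flt1 to infarction differed between the ages by the interaction term of the limma fit (-2.64 ± 0.48 on the log2 scale, SE; limma adjusted p = 0.0240, 13 libraries), with a neonatal arm of 2 sham libraries. Of those 2, library 5 had 47.3% of its reads on Uqcrc1. The call was lost with all 16 libraries (limma adjusted p = 0.509) and with the replicate block (limma adjusted p = 0.0559). It was also lost in 5 of the 13 fits that leave out 1 library. Of the 13 libraries, Flt1 was higher in 4 of 4 MI P1 libraries than in both sham P1 libraries, and lower in 3 of 3 MI P56 libraries than in all 4 sham P56 libraries.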

How the results depend on the processing

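With all 16 libraries 0 members were called for MI at P56, 0 for the difference between the ages and 1 for age in sham, against 1, 1 and 2 with 13. Array weights on the 16 libraries gave 2 for MI at P56, 1 for MI at P1, 2 for the difference and 1 for age after MI. For MI at P56, a pseudocount of 4 and DESeq2 each gave 2, since Flt1 joined Kdr. For the difference, a value of at least 5, quantile normalization and DESeq2 each gave 2, since Kdr joined Flt1. Kdr also joined Flt1 and Nrp1 for age in sham with array weights, a value of at least 5 and quantile normalization. Table columns with the same number did not deviate together (1 of 15 pairs over 0.1, median correlation -0.05). Deviations from the means of groups this small are tied to each other, so this check cannot exclude a pairing. Whether the numbers pair the libraries is not known. With the replicate block 0 members were called for the difference between the ages (Flt1 -2.69, adjusted p = 0.0559), 8 genes in all instead of 63, and Vegfa for age in sham turned to -0.064. The block changed no other call of a member. Over all genes, 446 were called for MI at P56, but 23 with 16 libraries, 899 with array weights, 866 with DESeq2, 153 with only the groups compared and 143 to 645 without 1 library. The other counts under these 4 settings were 0, 70, 7 and 8 for MI at P1 (0 with 13 libraries) and 518, 3053, 2148 and 728 for age in sham (1716). They were 14, 1419, 1024 and 1136 for age after MI (697), and for the difference (63) 1, 438 and 324, and 34 with a pseudocount of 4. Without 1 library the counts ran from 0 to 2 for MI at P1, 1 to 228 for the difference, 644 to 2270 for age in sham and 317 to 1344 for age after MI. The edgeR test split its calls for MI at P56 into 270 higher and 71 lower, against 307 and 139.

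Changes of uncalled members turned sign as follows. With 16 libraries Kdr (-0.034), Flt4 (-0.43), Vegfa (0.24) and Vegfb (-0.42) did for MI at P1, Flt4 (0.013), Nrp2 (0.74) and Vegfa (-0.54) for the difference, Flt4 (-0.045), Nrp2 (-1.16) and Vegfc (-0.82) for age in sham, and Flt4 (-0.032) for age after MI. The Vegfa to Vegfc ratio did for MI at P1 (1.62; 0.014 with a pseudocount of 0.25) and age in sham (1.55). With array weights Vegfa (0.19) and Vegfc (0.21) did for MI at P56, Flt4 (-0.037) for MI at P1, and Nrp2 (-0.15), Vegfa (-0.12) and Vegfb (0.18) for age in sham. Nrp2 did for MI at P1 with quantile normalization (0.0014), and Vegfa for the difference with edgeR (-0.21) and DESeq2 (-0.25). The cause was not tested in any of these.

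Leaving out 1 library gave 1 to 2 members for MI at P56, 0 to 2 for the difference, 1 to 3 for age in sham and 0 to 1 for age after MI. Signs turned within these ranges: for MI at P56, Vegfa -0.50 to 0.38 and Vegfc -0.30 to 0.24. For MI at P1 they were Flt4 -0.19 to 0.47, Nrp2 -0.34 to 0.33, Vegfb -0.31 to 0.52 and Vegfc -0.86 to 0.22. For the difference they were Vegfa -0.17 to 0.71, Vegfb -0.72 to 0.11 and Vegfc -0.35 to 0.74. For age in sham they were Nrp2 -0.23 to 0.44, Vegfa -0.38 to 0.51, Vegfb -0.49 to 0.34 and Vegfc -0.30 to 0.79, and for age after MI Flt4 -0.20 to 0.32. The ratio of Kdr to Flt4 ran from -0.10 to 0.23 for MI at P1 and from -0.15 to 0.49 for age in sham, and that of Nrp1 to Nrp2 from -0.093 to 0.42 for MI at P56. The ratio of Vegfa to Vegfc ran from -0.22 to 0.19 for MI at P56, from -0.40 to 0.39 for MI at P1 and from -0.48 to 0.32 for age in sham. Of the wider list, 0 to 16 genes were called for MI at P56 under the other settings, against 7. The neonatal arm rests on 2 sham libraries, and in 1 of these, library 5, Flt1 had 134 reads. Vegfb and Vegfc had 76 to 624 reads per library in the 13 libraries.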
